A study of Rattus norvegicus with 320 samples.

Results

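The miRNAs described here are the rat myomiRs miR-1, miR-133a, miR-133b and miR-206, taken as every measured miRNA named miR-1, miR-133a, miR-133b, miR-133c or miR-206, whichever arm of the hairpin it comes from. This name rule found 7 of the 616 miRNAs in the table, namely rno-miR-133a-3p, rno-miR-133a-5p, rno-miR-133b-3p, rno-miR-133b-5p, rno-miR-1-3p, rno-miR-1-5p and rno-miR-206-3p, written without the species prefix from here on. It found 0 miRNAs of the name miR-133c. miR-1b, which differs from miR-1-3p at a single base, lies outside the name rule and is given beside the members because the counting could not keep the pair fully apart.

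Small RNA was sequenced from 11 organs of Fisher 344 rats of both sexes at 2, 6, 21 and 104 weeks of age, with 4 rats per sex and age. The organs were adrenal gland, brain, heart, kidney, liver, lung, skeletal muscle, spleen, thymus, and testis or uterus. The animals carried no transgene or treatment as far as the labels say. By the study's methods the integrity of the RNA was lower in spleens of week 2 than in most other samples, and its part in the values was not tested. Of 320 libraries, 318 were kept, with 8 per organ and age (4 for testis and uterus), and the 2 that the study removed, from a male brain at week 6 and a female spleen at week 104, were left out. Whole organs were ground to powder before the RNA was extracted, so each value averages over all the cell types of the organ, and which muscle was taken as skeletal muscle is not given in the sources used here. In such bulk samples fewer cells of a type and less RNA per cell cannot be told apart.

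Levels are given as CPM, the counts of a miRNA per 1000000 counts assigned to the 616 miRNAs in a library. The totals of the kept libraries ran from 315550 to 10571766 counts with a median of 2848156, and they ran from 913357 to 3762229 in skeletal muscle and from 1479450 to 4673479 in heart. Liver was the shallowest organ, with 315550 to 1692126 counts. miR-208a-3p, whose host gene encodes the alpha myosin heavy chain of the heart, reached 3.05 CPM at most in any muscle library and was at 336 CPM or more in every heart library. Neuronal miRNAs summed to 21.2 to 570 CPM in muscle and 82.6 to 474 CPM in heart, and miRNAs of smooth muscle and stroma to 29794 to 85517 CPM in muscle and 123496 to 238019 CPM in heart. The library names of a female muscle and a female brain sample of week 6 are exchanged in the study's own sample list, but by their profiles both matched their labels in the count table, with 153973 CPM of miR-133a-3p in the muscle library and 254 CPM in the brain library.

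The myomiRs are transcribed from short clusters in which miR-1 or miR-206 lies beside a member of the miR-133 family. Serum response factor, MEF2 and the myogenic regulatory factors MyoD and myogenin drive these clusters in striated muscle, and miR-206 is known as the member of skeletal muscle that is nearly missing from the heart. miR-1 and miR-206 are known for promoting myoblast differentiation, and miR-133 for acting on proliferation and on serum response factor itself.

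The mature sequences below, read from RefSeq on the rat build GRCr8, are shown because the 7 members fall into families that share a seed, and because the near identity of their other bases limits how far their counts can be separated. Capitals mark the seed, bases 2 to 8 from the 5′ end. All 8 names, miR-1b included, matched a RefSeq miRNA.
miR-133a-3p: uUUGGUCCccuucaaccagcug
miR-133b-3p: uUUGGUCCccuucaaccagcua
miR-1-3p: uGGAAUGUaaagaaguguguau
miR-206-3p: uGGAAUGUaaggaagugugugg
miR-1b: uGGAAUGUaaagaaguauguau
miR-133a-5p: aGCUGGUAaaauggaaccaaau
miR-133b-5p: gCUGGUCAaacggaaccaagu
miR-1-5p: gCACAUACuucuuuauguaccc

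miR-133a-3p and miR-133b-3p shared the seed UUGGUCC and differed only at their last base, written G22A with positions counted from 1 at the 5′ end and the base of miR-133a-3p first. miR-1-3p, miR-206-3p and miR-1b shared the seed GGAAUGU. miR-1-3p and miR-206-3p differed by A11G, A21G and U22G, and miR-1-3p and miR-1b by G17A. The 5p arms each had a seed of their own. Since the authors' alignment allowed a mismatch, reads of miR-133a-3p and miR-133b-3p, or of miR-1-3p and miR-1b, could be exchanged within each pair, and values for the lower member of a pair are uncertain to that extent. miR-206-3p stands 3 differences from miR-1-3p and 4 from miR-1b.

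In GRCr8, miR-1-3p lies at chr18:2160339-2160360 and miR-133a-3p at chr18:2157886-2157907, both on the minus strand, with 2368 bases between the hairpins Mir1 and Mir133a1. Both hairpins lie within the span of the protein-coding gene Mib1, an E3 ubiquitin ligase of Notch signalling. miR-206-3p lies at chr9:30590747-30590768 and miR-133b-3p at chr9:30594629-30594650, both on the plus strand and within the long non-coding RNA gene LOC120094648, with 3801 bases between Mir206 and Mir133b. The single RefSeq locus of miR-1b is at chr3:187864736-187864757 on the plus strand.

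The 7 members together made up a large share of all miRNA counts in skeletal muscle and heart and a very small share elsewhere. In muscle their sum was 8.10% ± 1.54 of the counts at week 2, 14.3% ± 1.59 at week 6, 13.6% ± 1.43 at week 21 and 14.8% ± 2.44 at week 104 (SD, n = 8 each). In heart it was 8.20% ± 0.980, 7.41% ± 0.580, 8.21% ± 0.780 and 6.89% ± 1.52 at the same ages. Lung came next with means of 0.201% to 0.533% by age, then uterus with 0.0857% to 0.103%, and kidney was lowest with 0.00480% to 0.00827%. Most of the sum in both striated organs was miR-133a-3p.

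The order of the organs was led by skeletal muscle for every member, and by heart in the next place for all but miR-206-3p and miR-133b-5p. miR-133a-3p had a mean of 119520 CPM in muscle, 74319 CPM in heart, 2995 CPM in lung and 926 CPM in uterus. The other organs lay at 364 CPM in liver, 305 CPM in testis, 266 CPM in brain, 248 CPM in thymus, 154 CPM in adrenal gland, 128 CPM in spleen and 64.6 CPM in kidney. Liver and testis did not differ beyond their spread (log2 difference 0.45 ± 0.26 (SE), adjusted p = 0.114), nor did spleen and kidney (adjusted p = 0.835). Brain and thymus stood in this order by CPM, but after TMM scaling the level was lower in brain, by a log2 difference of -1.01 ± 0.21.

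miR-133b-3p followed the same leading order at lower levels, with means of 3958 CPM in muscle, 1080 CPM in heart and 85.5 CPM in lung. Brain had 21.7 CPM and uterus 21.2 CPM, a pair whose order turned after TMM scaling (log2 difference of brain over uterus -1.81 ± 0.24). Liver had 13.1 CPM, testis 8.62 CPM, thymus 6.34 CPM, spleen 4.59 CPM, adrenal gland 4.03 CPM and kidney 2.13 CPM. Testis and thymus, spleen and adrenal gland, and adrenal gland and kidney did not differ beyond their spread.

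miR-1-3p, which shares its seed with miR-206-3p and belongs to both striated tissues, had means of 2220 CPM in muscle, 1088 CPM in heart and 53.6 CPM in lung. In every other organ its mean was between 0.765 CPM in kidney and 4.25 CPM in thymus. Among those low organs, thymus and liver, testis and adrenal gland, and brain and spleen did not differ beyond their spread. miR-133a-5p, the less abundant arm of the miR-133a hairpin, had 413 CPM in muscle, 274 CPM in heart and 10.3 CPM in lung. miR-1-5p had 24.2 CPM in muscle, 10.1 CPM in heart and 0.609 CPM in lung.

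miR-206-3p had a different order below muscle. It was at a mean of 788 CPM in muscle, 37.6 CPM in lung, 7.95 CPM in brain, 3.37 CPM in liver and 2.25 CPM in heart, and at or below 1.22 CPM in the remaining 6 organs. Lung stood above brain (log2 difference 3.08 ± 0.24, adjusted p = 3.66e-29), while brain and liver, liver and heart, and heart and thymus did not differ beyond their spread. miR-133b-5p, the other arm of the hairpin next to miR-206, had 4.14 CPM in muscle, 0.114 CPM in lung and 0.0550 CPM in heart, and was at 0 in all 32 liver libraries.

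**Figure D1:**
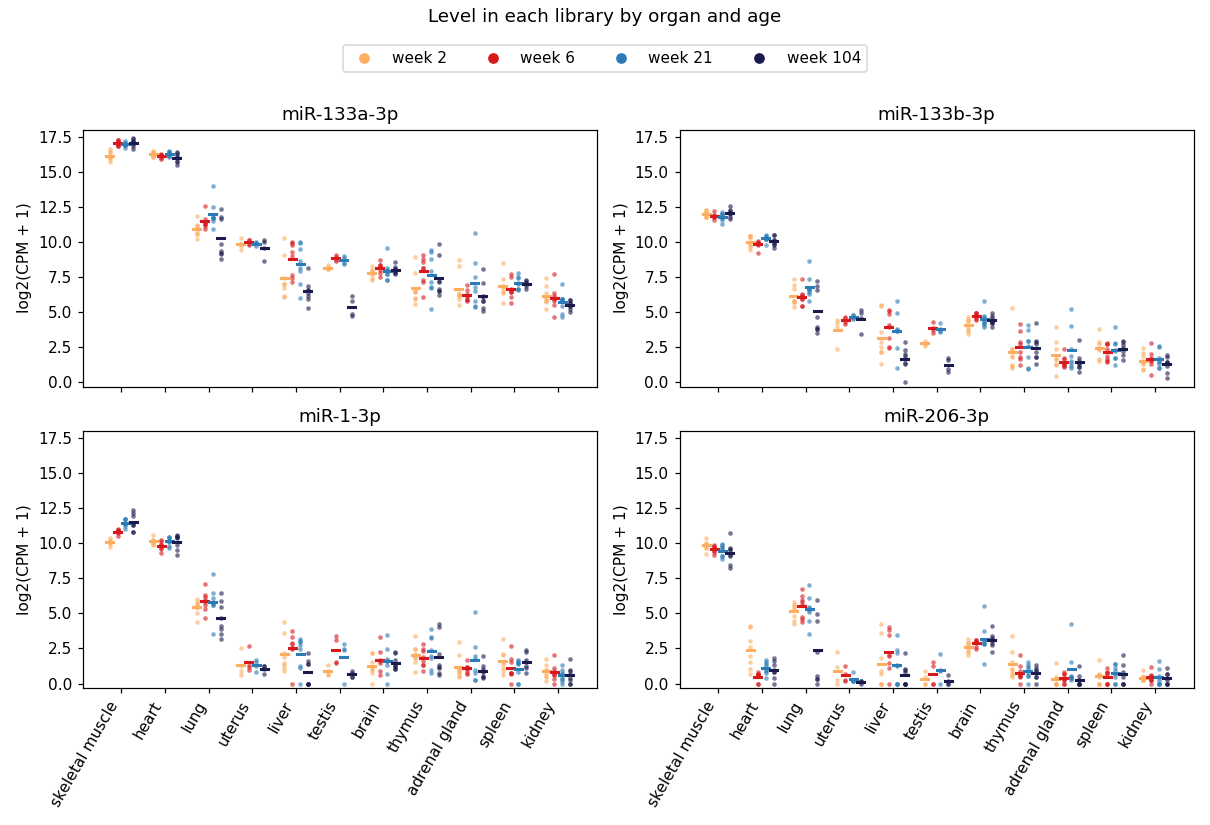
Level of miR-133a-3p, miR-133b-3p, miR-1-3p and miR-206-3p as log2(CPM + 1) in each of the 11 organs, by age in weeks. Each dot is a library and each bar the mean of an age; skeletal muscle and heart stand above all other organs for the first 3 miRNAs (119520 and 74319 CPM on average for miR-133a-3p), and muscle alone for miR-206-3p, with lung next.

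To ask which members were particular to an organ, skeletal muscle was compared with each of the 10 other organs at each age by the edgeR quasi-likelihood test, and enrichment meant a level higher by a factor of 4 or more and an adjusted p under 0.05 in all 40 comparisons. 5 of the 616 miRNAs (0.812%) passed for muscle, and 2 of them were members, miR-206-3p and miR-133b-5p. The other 3 were candidate miRNAs that the authors predicted from these reads, rno_miR_chr1_3858, rno_miR_chr3_28394 and rno_miR_chr10_8434. The study kept its candidates because they were higher in an organ than in all others in these same samples, and lists these 3 for muscle. Their passing was thus largely set by that choice. For heart the criterion of 40 comparisons was passed by 3 miRNAs (0.487%), miR-490-3p and both arms of miR-208a, and by 0 members.

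When muscle and heart were each set against the 9 other organs, 7 of the 616 miRNAs (1.14%) were enriched in both, and 5 of the 7 were members: miR-133a-3p, miR-133b-3p, miR-1-3p, miR-133a-5p and miR-1-5p. The other 2 were miR-1b and miR-208b-3p, which is encoded in the gene of the beta myosin heavy chain. The number of members that passed was 5 for this pair and 2 for muscle alone, which accounts for all 7.

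Lung set the smallest fold in each of these comparisons. Muscle over lung was 40.9-fold for miR-133a-3p at week 21 (log2 difference 5.35 ± 0.55), 43.1-fold for miR-133b-3p at week 21 (5.43 ± 0.48) and 31.7-fold for miR-1-3p at week 6 (4.99 ± 0.35). Heart over lung was 18.1-fold for miR-133a-3p (4.18 ± 0.52) and 10.6-fold for miR-133b-3p (3.41 ± 0.44), both at week 21, and 17.4-fold for miR-1-3p at week 6 (4.12 ± 0.34). A single lung library raised the week 21 level, as described with lung below, and without the replicates numbered 3 muscle over lung was 83.9-fold for miR-133a-3p and 87.9-fold for miR-133b-3p, and heart over lung was 25.1-fold and 13.6-fold.

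For miR-206-3p the smallest fold of muscle was 16.6 over lung at week 6 (4.05 ± 0.28). 9 of its 40 comparator groups had 3 counts or fewer in every library, and there muscle was at least 248-fold to at least 1954-fold higher, taking 3 counts per library as the floor. miR-133b-5p passed the criterion by its fitted values, but 39 of its 40 comparator groups were at this floor. Against the floor its lower bounds ran from 0.358-fold to 17.8-fold and were under 4-fold in 26 groups, so the depth does not show a 4-fold difference there. For miR-1-5p 30 comparator groups were at the floor, with lower bounds of 4.85-fold to 55.6-fold for muscle. For heart the lower bounds of miR-1-5p ran from 2.00-fold to 21.5-fold. They were under 4-fold in 4 groups, where the depth does not show a 4-fold difference.

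On average miR-206-3p was lower in heart than in lung at each age, but at week 104 the libraries overlapped. At that age lung ran from 0 through a median of 2.14 to 61.8 CPM, and heart from 0 through 0.865 to 2.56 CPM. The level in lung was 6.58-fold the level in heart at week 2, 32.5-fold at week 21 and 11.0-fold at week 104 (log2 differences of heart over lung -2.72 ± 0.44, -5.02 ± 0.60 and -3.46 ± 0.67). At week 6 all heart libraries were at the floor, and lung, with a mean of 51.7 CPM, was at least 49.6-fold higher.

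The direct comparison of skeletal muscle with heart asks which myomiRs separate the striated organs. miR-133b-3p and miR-206-3p were higher in muscle at every age, by 3.71-fold to 6.54-fold for the first and, for the second, by fitted folds of 219 to 993 and at week 6 by at least 739-fold, while miR-133a-3p and miR-1-3p did not differ beyond their spread at week 2 and were higher in muscle at the later ages. Higher in muscle were 5 members at week 2 (of all miRNAs, 32.5% were higher), 7 at week 6 (27.6%), 7 at week 21 (22.2%) and 7 at week 104 (19.3%). The share of higher among all calls was 54.9%, 41.9%, 41.8% and 41.8% at the 4 ages, against 40.9%, 45.9%, 29.9% and 17.6% by library size alone and 64.0%, 67.0%, 64.1% and 59.2% by DESeq2.

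In muscle miR-133a-3p ran from 53337 CPM through a median of 69660 to 98775 CPM at week 2, from 118641 through 135061 to 156794 CPM at week 6, from 105585 through 125621 to 152749 CPM at week 21 and from 99463 through 142782 to 172130 CPM at week 104. In heart it ran from 67043 through 82512 to 90870 CPM, from 62002 through 73432 to 79362 CPM, from 69118 through 78303 to 89730 CPM and from 45426 through 66120 to 87762 CPM. The organs overlapped at week 2, and at each later age every muscle library lay above every heart library. The log2 difference was 0.47 ± 0.43 at week 2 (adjusted p = 0.358), 0.79 ± 0.30 at week 6 (adjusted p = 0.0174), 1.17 ± 0.47 at week 21 (adjusted p = 0.0283) and 1.78 ± 0.44 at week 104 (adjusted p = 4.90e-04). The SE comes from a fit over all 11 organs of an age, which share an estimate of the spread. At week 21 the call was lost without the replicates numbered 1, 2 or 4, although the difference stayed at 1.14 to 1.17, by library size alone (0.70, adjusted p = 0.219) and with sequencing lane as a covariate (0.93).

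miR-1-3p showed the same pattern. Its medians in muscle were 1095 CPM (854 to 1353), 1883 CPM (1430 to 2030), 2725 CPM (2078 to 3438) and 2648 CPM (1766 to 5163) at weeks 2, 6, 21 and 104. In heart they were 1101 CPM (931 to 1512), 901 CPM (614 to 1208), 1142 CPM (815 to 1404) and 1337 CPM (576 to 1496). Muscle and heart overlapped at week 2 and did not overlap at the later ages. The log2 difference of muscle over heart was 0.49 ± 0.33 at week 2 (adjusted p = 0.203), 0.86 ± 0.30 at week 6 (adjusted p = 0.00873), 1.79 ± 0.47 at week 21 (adjusted p = 8.28e-04) and 2.18 ± 0.43 at week 104 (adjusted p = 1.52e-05), the last a 4.54-fold difference.

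miR-133b-3p, by contrast, was separated from week 2 on. Its muscle libraries ran from 3474 through a median of 4230 to 4924 CPM at week 2 and from 3125 through 4259 to 6122 CPM at week 104, and its heart libraries from 684 through 1100 to 1405 CPM and from 774 through 1043 to 1463 CPM. No heart library at any age reached the level of a muscle library. The muscle level was 5.60-fold, 3.71-fold, 4.07-fold and 6.54-fold the heart level at weeks 2, 6, 21 and 104 (log2 differences 2.49 ± 0.44, 1.89 ± 0.26, 2.02 ± 0.42 and 2.71 ± 0.40).

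miR-206-3p was nearly confined to muscle within this pair. At week 2 it ran from 587 through a median of 957 to 1294 CPM in muscle and from 0.614 through 3.99 to 16.0 CPM in heart. At week 6 muscle ran from 567 through 792 to 933 CPM, and heart had 3 counts or fewer in every library, with 0.803 CPM at most, so that muscle was at least 739-fold higher. At week 21 muscle had 471 to 969 CPM and heart 0.304 to 2.22 CPM, and at week 104 muscle had 303 to 1718 CPM and heart 0 to 2.56 CPM. The muscle level was 219-fold the heart level at week 2, 800-fold at week 21 and 993-fold at week 104 (log2 differences 7.77 ± 0.52, 9.64 ± 0.67 and 9.96 ± 0.77).

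The 5p arms were also higher in muscle. miR-133a-5p had log2 differences of 0.84 ± 0.28, 0.90 ± 0.20, 0.81 ± 0.35 and 1.38 ± 0.41 at the 4 ages, of which those at weeks 2, 21 and 104 were not called by library size alone (0.32, 0.34 and 0.66). At week 21 the call was also lost with lane as a covariate (0.73) and without the replicates numbered 1, 2 or 4 (0.84, 0.88 and 0.74). miR-1-5p had log2 differences of 1.57 ± 0.20, 1.71 ± 0.25, 1.55 ± 0.26 and 1.66 ± 0.32. miR-133b-5p was at 0 in 7, 8, 7 and 7 of the 8 heart libraries at weeks 2, 6, 21 and 104, and muscle was at least 10.4-fold, 2.51-fold, 1.13-fold and 2.17-fold higher.

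**Figure D2:**
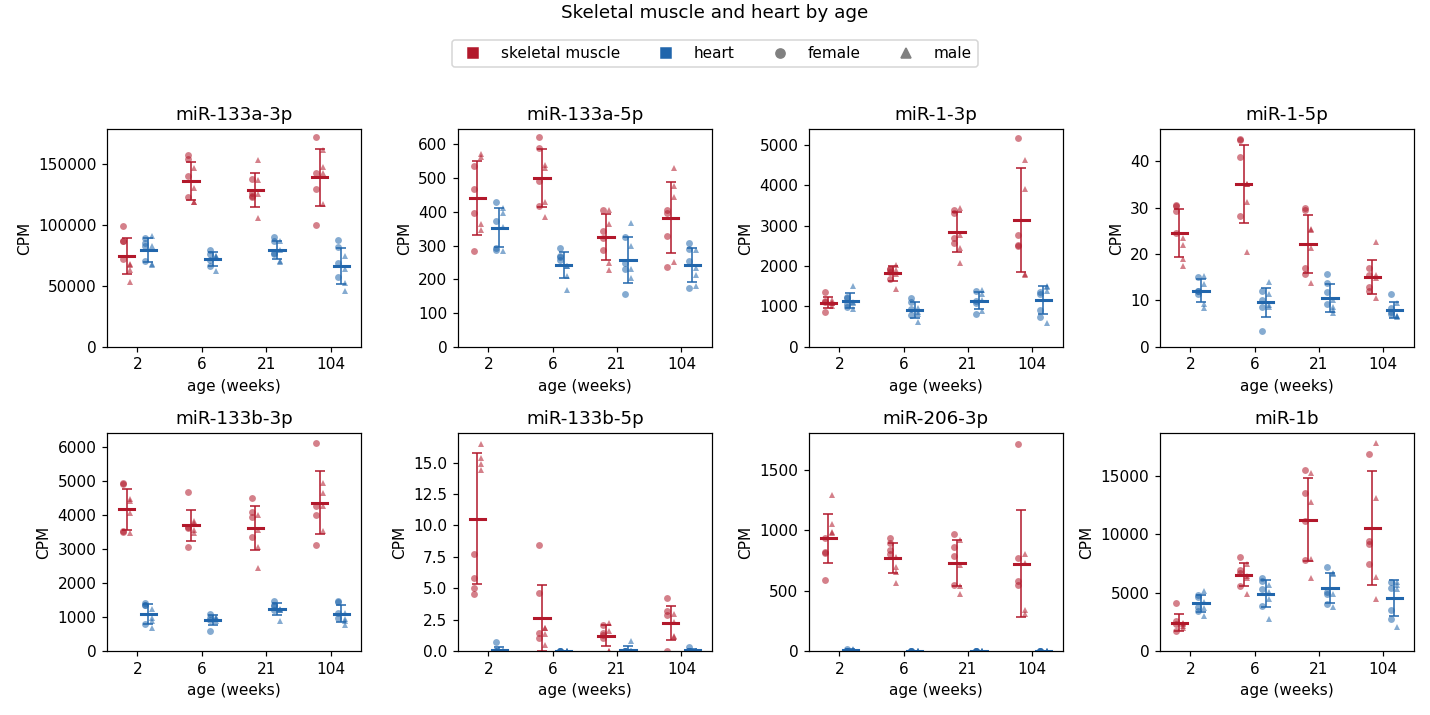
Level in CPM, on linear axes from 0, of the 7 members and of miR-1b by age in weeks in skeletal muscle (red) and heart (blue). Circles are female and triangles male libraries, and short lines mark the means, with SD bars. miR-133a-3p and miR-1-3p overlap between the organs at week 2 and part afterwards, while miR-206-3p stays at 16.0 CPM or less in every heart library.

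Within skeletal muscle the members changed unequally from week 2 to week 104. miR-1-3p rose most, by 5.50-fold, miR-133a-3p rose 3.57-fold, and miR-133b-3p rose 1.97-fold after TMM scaling, while the calls of miR-206-3p, miR-133a-5p and miR-1-5p depended on the scaling, as did that of miR-133b-3p, and miR-133b-5p fell on both. The scaling matters in this organ: the median log2 difference of all 616 miRNAs was -0.18 after TMM scaling and -0.93 by library size alone, so the changes from week 2 to week 104 are given on both. After TMM scaling 5 members were higher at week 104 (28.1% of all miRNAs) and 1 was lower (31.7%). Over all miRNAs 173 were higher and 195 lower after TMM scaling, and 70 and 271 by library size alone.

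For miR-1-3p the muscle mean was 1095 ± 141 CPM at week 2, 1818 ± 187 at week 6, 2837 ± 498 at week 21 and 3131 ± 1286 at week 104 (SD, n = 8 each), and the lowest library of week 104 lay above the highest of week 2. The log2 change from week 2 to week 104 was 2.46 ± 0.21 (adjusted p = 9.83e-13), and 1.52 ± 0.18 by library size alone. It was made up of 1.01 ± 0.20 from week 2 to week 6 and 1.21 ± 0.20 from week 6 to week 21, with 0.23 ± 0.20 from week 21 to week 104 (adjusted p = 0.490). These steps were, by library size alone, 0.73, 0.64 and 0.14.

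For miR-133a-3p the muscle mean was 74297 ± 15061 CPM at week 2, 135935 ± 15466 at week 6, 128768 ± 13844 at week 21 and 139086 ± 23443 at week 104. All libraries of week 6 and later lay above all libraries of week 2. The log2 change from week 2 to week 104 was 1.84 ± 0.13 (adjusted p = 1.11e-14), and 0.92 ± 0.13 by library size alone, a 1.90-fold rise. The step from week 2 to week 6 was 1.17 ± 0.13 (0.89 by library size alone). The step from week 6 to week 21 was 0.48 ± 0.13 after TMM scaling and -0.076 by library size alone, where it was not called.

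miR-133b-3p, which sits in the other cluster, had muscle medians of 4230, 3627, 3746 and 4259 CPM at weeks 2, 6, 21 and 104, and the libraries of the 4 ages overlapped. Its log2 change from week 2 to week 104 was 0.98 ± 0.14 after TMM scaling (adjusted p = 1.41e-07) but 0.07 by library size alone, which was not called. From week 6 to week 21 it was 0.52 ± 0.14 after TMM scaling and -0.039 by library size alone.

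miR-206-3p had muscle medians of 957, 792, 751 and 652 CPM, with overlapping libraries. After TMM scaling its log2 change from week 2 to week 104 was 0.53 ± 0.23 (adjusted p = 0.0427), against -0.40 by library size alone, which was not called. A female library of week 104 stood at 1718 CPM, the next having 801 CPM. The call was lost without the replicates numbered 1 (0.29), 3 (0.53) or 4 (0.46), by DESeq2 (0.17), with lane as a covariate (0.40) and with a mean count of at least 10 (0.44).

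Of the 5p arms, miR-133a-5p had medians of 433, 512, 332 and 400 CPM in muscle, and its log2 change from week 2 to week 104 was 0.74 ± 0.17 (adjusted p = 2.35e-04) after TMM scaling and -0.21 by library size alone. miR-1-5p had medians of 24, 35.1, 23.3 and 15.1 CPM, and its change was 0.24 ± 0.19 (adjusted p = 0.287) after TMM scaling and -0.69 by library size alone, where it was called. miR-133b-5p was highest at week 2, at 4.57 through 11.1 to 16.5 CPM against 0 through 2.56 to 4.22 CPM at week 104, and fell on both scalings, by a log2 change of -1.11 ± 0.36 (adjusted p = 0.00813) and of -2.01. With lane as a covariate the change of miR-133b-5p was -1.08 and was not called. miR-1b, outside the name rule, rose by a log2 change of 3.08 ± 0.26, or 2.13 by library size alone, from a median of 2300 CPM at week 2 to 9274 CPM at week 104.

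Between neighbouring ages, most of the calls fell before week 21. From week 2 to week 6 in muscle 4 members were higher (19.5% of all miRNAs), namely miR-133a-3p, miR-1-3p, miR-1-5p (log2 change 0.82 ± 0.19, and 0.52 by library size alone) and miR-133a-5p (0.48 ± 0.17, and 0.18 by library size alone, not called, nor called without the replicates numbered 3 or 4, by DESeq2 or with lane as a covariate). miR-133b-5p was lower (25.8% of all miRNAs), by a log2 change of -1.73 ± 0.38 (-2.01 by library size alone). miR-206-3p stood at 0.00 ± 0.23. From week 6 to week 21 the 3 members called (38.0% of all miRNAs were called) were miR-133a-3p, miR-133b-3p and miR-1-3p. From week 21 to week 104, 0 members were called by edgeR's quasi-likelihood test (15.4% of all miRNAs); at an unadjusted threshold of 0.05 there were 2, miR-133b-3p and miR-1-5p, and DESeq2 called 1, miR-1-5p. Among all calls the share of higher ones was 43.0% for the first step and 35.9% for the next, against 26.9% and 11.3% by library size alone.

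In heart the log2 changes of miR-133a-3p and miR-1-3p were smaller than in muscle. From week 2 to week 104, 3 members were higher after TMM scaling (28.6% of all miRNAs) and 1 was lower (26.1%), and over all miRNAs 176 were higher and 161 lower, against 80 and 251 by library size alone. The 3 were miR-133a-3p (0.30 ± 0.11, adjusted p = 0.0151), miR-133b-3p (0.58 ± 0.12, adjusted p = 1.54e-04) and miR-1-3p (0.58 ± 0.17, adjusted p = 0.00462). By library size alone these were -0.27, which was called, 0.01 and 0.02. miR-133a-5p (0.02) and miR-1-5p (-0.04) were not called after TMM scaling, and were -0.55 and -0.61 and called by library size alone. The calls of miR-133a-3p and miR-1-3p were both lost without the replicates numbered 1, 2 or 4 (0.26, 0.24 and 0.25 for the first, 0.47, 0.38 and 0.46 for the other), and that of miR-133a-3p also by DESeq2 (0.17) and with a mean count of at least 10 (0.23).

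miR-206-3p fell in heart, from a median of 3.99 CPM at week 2 to 0.520, 1.21 and 0.865 CPM at weeks 6, 21 and 104. The week 2 libraries were spread from 0.614 to 16.0 CPM, with the highest value in a female and the next in 2 males, of which the lower had 7.12 CPM. At week 6 every library was at the floor of 3 counts, so the fall from the week 2 mean of 6.21 CPM was at least 5.95-fold (adjusted p = 7.20e-05). The log2 change from week 2 to week 104 was -1.80 ± 0.51 (adjusted p = 0.00293), and without the replicates numbered 2 it was -0.76 and was not called.

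For the steps in heart, 2 members were higher at week 6 than at week 2 (20.5% of all miRNAs), miR-133a-3p at 0.39 ± 0.11 and miR-133b-3p at 0.31 ± 0.12, with -0.14 and -0.23 by library size alone, and miR-206-3p was lower (19.3%). Without the replicates numbered 2, neither of the higher pair was called (0.34 and 0.27). The call of miR-133b-3p was also lost by DESeq2 (0.15), with library sizes taken without the members (0.25), with a mean count of at least 10 (0.21), with lane as a covariate (0.32) and without the replicates numbered 3 (0.15) or 4 (0.31). From week 6 to week 21, miR-133a-3p (0.32 ± 0.11), miR-133b-3p (0.60 ± 0.12) and miR-1-3p (0.51 ± 0.17) were called (24.7% of all miRNAs), and the calls of miR-133a-3p and miR-1-3p were lost without the replicates numbered 1, 2 or 4 and by library size alone (0.14 and 0.34), that of miR-133a-3p also with lane. From week 21 to week 104 only miR-133a-3p was called (5.68% of all miRNAs), at -0.40 ± 0.11 (adjusted p = 0.0216), a call lost without the replicates numbered 2, 3 or 4 (-0.43, -0.34 and -0.45) and by library size alone (-0.27). The share of higher among all calls was 51.4%, 38.8% and 62.9% for these steps, and 16.0%, 20.5% and 82.9% by library size alone.

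Whether the change with age differed between the organs was tested as an interaction. From week 2 to week 104, 3 members changed more positively in muscle than in heart (13.6% of all miRNAs): miR-133a-3p by 1.32 ± 0.17 (2.50-fold, adjusted p = 9.17e-10), miR-1-3p by 1.65 ± 0.28 (3.14-fold, adjusted p = 9.26e-07) and miR-206-3p by 2.10 ± 0.56 (4.29-fold, adjusted p = 0.00129). These differences were 1.19, 1.5 and 2.04 by library size alone. miR-133b-3p, at 0.19 ± 0.19, was not called, nor was miR-133a-5p at 0.50 ± 0.21 (adjusted p = 0.0516). The value of miR-206-3p was 1.19 and not called without the replicates numbered 2, which include the heart libraries of week 2 with 16.0 and 7.12 CPM.

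From week 2 to week 6 the interaction was called for 2 members (3.25% of all miRNAs), miR-133a-3p at 0.66 ± 0.17 (adjusted p = 0.00235) and miR-206-3p at 2.88 ± 0.63 (adjusted p = 4.10e-04, and 2.12 and not called without the replicates numbered 2). Since heart was at the floor at week 6, this value for miR-206-3p does not measure the size of the difference. miR-1-3p was at 0.70 ± 0.28 (adjusted p = 0.0719). Of all miRNAs called for this step, 18.2% changed more positively in muscle, against 55.3% by library size alone.

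**Figure D3:**
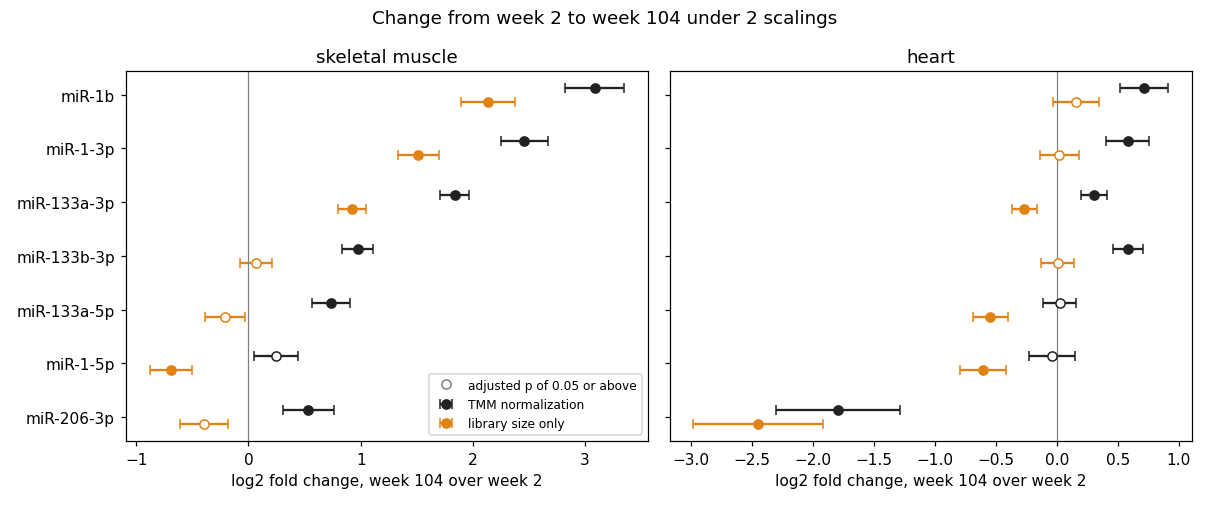
Log2 change from week 2 to week 104 in skeletal muscle and heart of miR-1b and of the members except miR-133b-5p, which was at 0 in most heart libraries, with SE bars, after TMM scaling (black) and by library size alone (orange). Open symbols have an adjusted p of 0.05 or more; in muscle miR-1-3p (2.46 and 1.52) and miR-133a-3p (1.84 and 0.92) lie above 0 on both scalings, whereas miR-206-3p lies at 0.53 and -0.40.

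Ratios within a library do not depend on how libraries are scaled to each other, and were used to compare members that share a seed, a cluster or a hairpin. In all, 42 exact permutation tests (two-sided, 8 against 8 libraries) were run, whose smallest attainable p is 1.55e-04. The tests that reached it had an adjusted p of 5.02e-04 here, by Benjamini-Hochberg over the 42. All 42 tests were added after the levels had been seen. Since miR-133a-3p exceeds miR-133b-3p many times, misassigned reads of the former would raise the ratio, and their share was not tested.

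The balance between miR-133b-3p and miR-133a-3p, which share a seed and come from different clusters, changed in muscle between weeks 2 and 6. Per 100 counts of miR-133a-3p there were 5.72 ± 0.977 counts of miR-133b-3p at week 2, 2.73 ± 0.286 at week 6, 2.81 ± 0.439 at week 21 and 3.14 ± 0.361 at week 104 (SD, n = 8 each). The libraries of week 2 (4.05 to 6.65) lay above all those of week 104 (2.47 to 3.65), and likewise above those of week 6 (exact permutation test, adjusted p = 5.02e-04 for both). In heart the ratio was 1.34 ± 0.237, 1.28 ± 0.216, 1.56 ± 0.238 and 1.65 ± 0.167, a small rise from week 2 to week 104 (exact permutation test, adjusted p = 0.0236). Muscle lay above heart at every age without overlap (adjusted p = 5.02e-04 each, exact permutation tests).

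The share of miR-1-3p in the sum of miR-1-3p and miR-1b fell early in both organs. In muscle it was 31.7% ± 3.15 at week 2, 21.9% ± 1.67 at week 6, 20.8% ± 3.13 at week 21 and 23.4% ± 2.45 at week 104. In heart it was 21.9% ± 1.22, 15.8% ± 1.29, 17.7% ± 1.15 and 20.5% ± 1.27. Weeks 2 and 6 did not overlap in either organ (exact permutation test, adjusted p = 5.02e-04 each), and in heart week 104 was not separated from week 2 (adjusted p = 0.0676, exact permutation test). The share was higher in muscle than in heart at each age, with adjusted p from 5.02e-04 to 0.0258 (exact permutation tests). Thus miR-1b, not miR-1-3p, held most of the counts of this pair in both organs.

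The 5p arms fell against their 3p arms in muscle. Per 100 counts of miR-1-3p there were 2.26 ± 0.466 counts of miR-1-5p at week 2 and 0.550 ± 0.226 at week 104, the libraries running from 1.49 to 2.88 and from 0.225 to 0.870, with no overlap (exact permutation test, adjusted p = 5.02e-04). Per 100 counts of miR-133a-3p there were 0.608 ± 0.171 counts of miR-133a-5p at week 2 (0.395 to 0.853) and 0.274 ± 0.0538 at week 104 (0.214 to 0.372), again with no overlap (exact permutation test, adjusted p = 5.02e-04). In heart miR-1-5p was at 1.08 ± 0.246 and 0.783 ± 0.397 per 100 (adjusted p = 0.141, exact permutation test) and miR-133a-5p at 0.445 ± 0.0550 and 0.369 ± 0.0495 per 100 (adjusted p = 0.0240, exact permutation test). Differences between the organs in these changes were not tested.

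Between cluster partners no change of the ratio in muscle from week 2 to week 104 passed the adjusted threshold. Per 100 counts of miR-133a-3p there were 1.51 ± 0.288 counts of miR-1-3p in muscle at week 2 and 2.30 ± 0.986 at week 104 (exact permutation test, adjusted p = 0.0735). Per 100 counts of miR-133b-3p there were 22.9 ± 6.20 counts of miR-206-3p at week 2 and 17.5 ± 11.7 at week 104 (exact permutation test, p = 0.282 before adjustment).

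**Figure D4:**
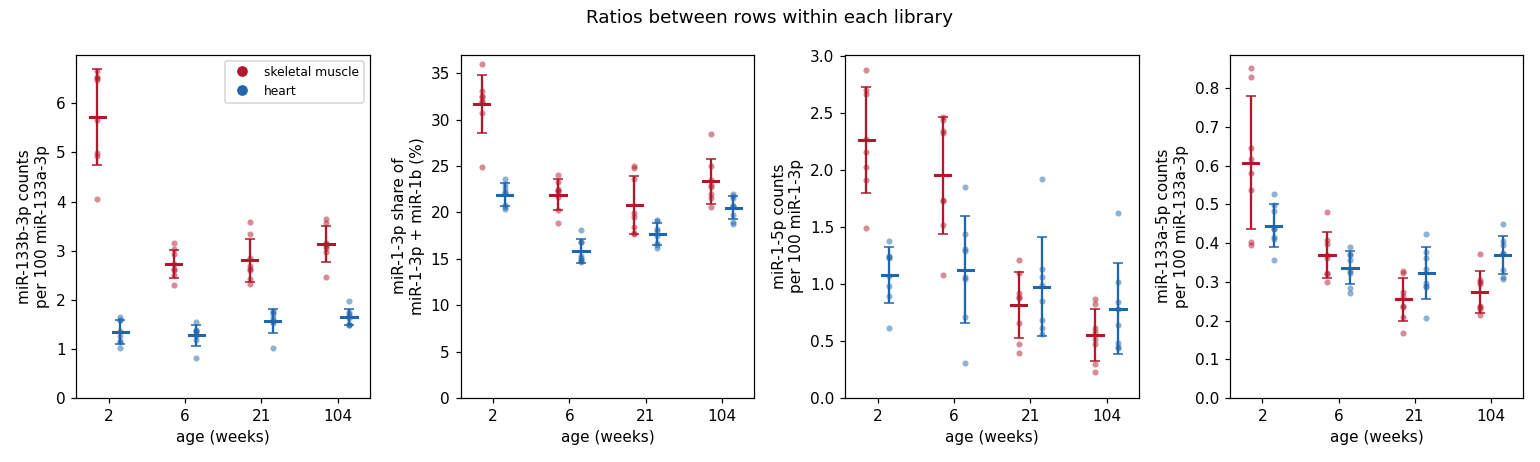
Ratios of 2 miRNAs within a library by age in weeks, in skeletal muscle and heart; points are libraries and bars the mean ± SD. The ratio of miR-133b-3p to miR-133a-3p stands at 5.72 per 100 in muscle at week 2 and near 3 per 100 afterwards, and at 1.28 to 1.65 per 100 in heart.

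Outside the striated organs, brain or uterus had the most extreme mean of each ratio below. These organs were picked for testing after the data were seen, and the p-values do not allow for that choice. In brain there were 8.35 counts of miR-133b-3p per 100 of miR-133a-3p (5.04 to 12, n = 31), against 3.60 (2.30 to 6.65, n = 32) in muscle and 1.46 (0.815 to 1.96, n = 32) in heart (permutation test, p = 2.00e-05 for both, the smallest that 100000 resamples can give). In uterus, which is rich in smooth muscle, miR-1-3p made up 2.61% (0.927% to 7.46%, n = 16) of the sum of miR-1-3p and miR-1b, against 24.5% in muscle, where the lowest library had 17.7%, and 19.0% in heart, where the lowest had 14.7% (permutation test, p = 2.00e-05 for both). Per 100 counts of miR-133a-3p uterus had 0.189 counts of miR-1-3p, against 1.84 in muscle. In organs other than muscle, heart and lung these ratios rest on low counts of miR-1-3p.

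Lung had the highest mean levels after muscle and heart, and its libraries varied. For miR-206-3p, and for miR-133b-5p near the floor, the lung mean was above that of heart. miR-133a-3p ran from 1164 through a median of 1894 to 3615 CPM at week 2, from 1954 through 2581 to 6047 CPM at week 6, from 1911 through 3375 to 16301 CPM at week 21 and from 445 through 781 to 5334 CPM at week 104. miR-206-3p ran from 17.8 through 38.2 to 56.1 CPM, from 19.5 through 51.8 to 104 CPM, from 10.8 through 38.4 to 129 CPM and from 0 through 2.14 to 61.8 CPM. At week 104 the libraries parted: 5 of them, from the 4 females and a male, had 445 to 904 CPM of miR-133a-3p and 0 to 3.84 CPM of miR-206-3p, and the other 3, all male, had 3236 to 5334 CPM and 21.4 to 61.8 CPM.

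The highest lung library, from a male of week 21, had 16301 CPM of miR-133a-3p and 129 CPM of miR-206-3p, against 1911 to 5885 CPM and 10.8 to 66.1 CPM in the other 7 of that age. The same library had 2885 CPM of the liver miRNA miR-122-5p, against 2.61 to 5.43 CPM in the other 7, and 7.30 CPM of the heart miRNA miR-208a-3p, against 9.87 to 48.3 CPM. The part of tissue from other organs in these levels was not tested.

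Over the 32 lung libraries, which share the organ and the assay, log2(CPM + 1) of miR-133a-3p correlated with that of miR-206-3p (Pearson 0.877, Spearman 0.739) and of miR-1-3p (0.891 and 0.810), and less with that of miR-208a-3p (0.353 and 0.539). In heart tissue miR-206-3p was nearly missing, and in muscle miR-208a-3p was. Only miR-206-3p was called between weeks 2 and 104 in lung (49.5% of all miRNAs were called), with a log2 change of -2.45 ± 0.58 (adjusted p = 6.08e-04). miR-133a-3p in lung, with groups overlapping in range, was not called.

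**Figure D5:**
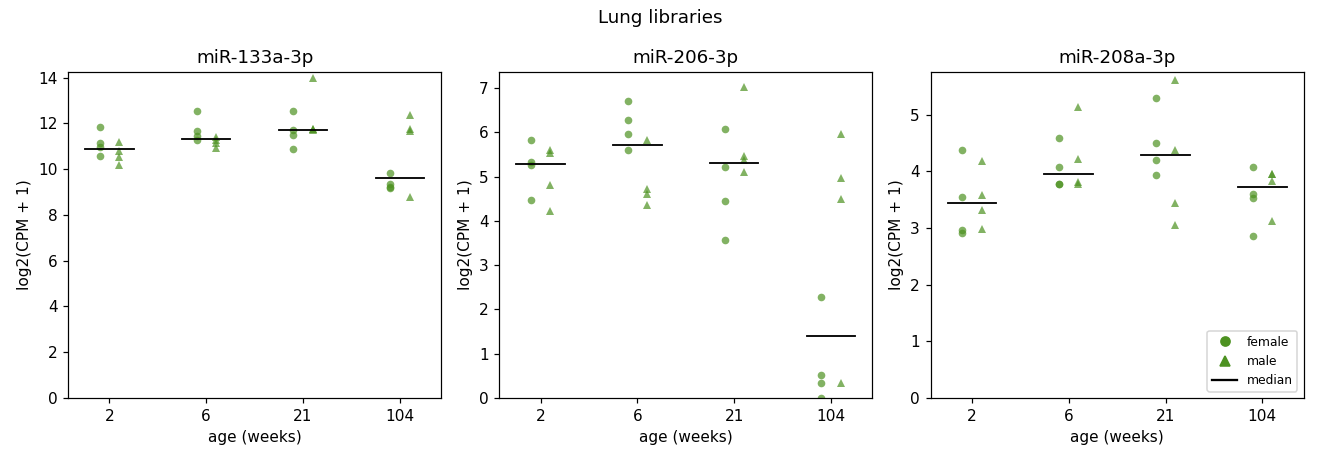
Level in each lung library, as log2(CPM + 1), of miR-133a-3p, miR-206-3p and miR-208a-3p by age in weeks, with a line at the median. At week 104 the libraries fall at 445 to 904 CPM and at 3236 to 5334 CPM of miR-133a-3p, and 1 library of week 21 stands at 16301 CPM.

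In the remaining organs the members were at low levels, and those called between weeks 2 and 104 are given beside the share of all miRNAs called. In brain 4 members were higher (54.7% of all miRNAs were called), namely miR-133a-3p (0.64 ± 0.23), miR-133b-3p (0.75 ± 0.22), miR-206-3p (0.96 ± 0.39) and miR-1-5p, and 0 of them were called by library size alone. miR-1-5p had 3 counts or fewer in every brain library of both ages, so no fold is given for it. Each of the 4 calls in brain was also lost when the replicates of some number were left out, for miR-133b-3p those numbered 2. In liver 3 were lower (44.6%), miR-133a-3p at -1.31 ± 0.52, miR-133b-3p at -2.16 ± 0.67 and miR-1-3p at -1.92 ± 0.71, and 0 of them were called with lane as a covariate or, for any of the 3, without the replicates numbered 1. In testis miR-133a-3p was lower (55.2% of all miRNAs were called), at -1.20 ± 0.20, and at -2.71 by library size alone.

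In uterus 2 members were higher (44.6%), miR-133a-3p at 0.73 ± 0.20, which by library size alone was -0.17 and not called, and miR-133b-3p at 1.56 ± 0.35, which by library size alone was 0.74 and not called. In thymus miR-206-3p was lower (58.0%), by at least 1.61-fold from a week 2 mean of 2.34 CPM, since all its libraries of week 104 were at the floor, and it was not called without the replicates numbered 2. In adrenal gland (45.0%), kidney (43.7%) and spleen (39.6%) 0 members were called. The highest of these organs' single libraries for miR-133a-3p was an adrenal gland of a male at week 21, with 1576 CPM. It had 18.1 CPM of miR-206-3p. Its replicate number, 3, is that of the highest lung library. For miR-133a-3p the male week 21 library of this number was also the highest of its age in brain, thymus and kidney. The levels there were 765, 698 and 131 CPM. In heart, liver, muscle, spleen and testis it was not the highest. Whether a single rat gave these libraries was not tested.

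By edgeR's quasi-likelihood test sex made no called difference to any member in muscle or heart. Between males and females, averaged over the 4 ages, 0 of the 7 members were called by edgeR's quasi-likelihood test in muscle, where 5 miRNAs (0.812%) were called, and 0 in heart, where 4 (0.649%) were. At an unadjusted threshold of 0.05 there were 0 members in muscle and 2 in heart, both lower in males, miR-133a-3p (-0.18 ± 0.07) and miR-133b-3p (-0.28 ± 0.09). DESeq2 called miR-133b-3p in heart (-0.29).

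Other miRNAs known from striated muscle changed along with the members in muscle. Of 10 measured arms of miR-208a, miR-208b, miR-499, miR-486, miR-378a and miR-378b, 9 were higher at week 104 than at week 2 in muscle, 0 were lower and 1 was not called, with a median log2 change of 1.43 against -0.18 over all miRNAs. By library size alone 4 were higher, 0 lower and 6 not called, with a median of 0.68 against -0.93. miR-499-3p rose by 3.82 ± 0.41 and miR-499-5p, encoded in a slow myosin gene, by 3.37 ± 0.18, from a mean of 77.4 to 438 CPM (2.94 and 2.46 by library size alone). miR-208a-3p (1.79 ± 0.69) and miR-208b-5p (1.60 ± 0.63) also rose, at levels under 1 CPM at both ages, but were not called by library size alone (0.99 and 0.78). In heart 3 of the 10 were higher, 3 lower and 4 not called, with a median of 0.03 against 0.07 over all miRNAs, and by library size alone 1, 6 and 3, with a median of -0.53 against -0.45. Of all miRNAs in heart, 176 were higher and 161 lower, and 80 and 251 by library size alone.

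Of 36 measured arms of miRNAs known from myoblast differentiation and growth, 20 were higher at week 104 in muscle, 10 lower and 6 not called, with a median of 0.68. Over all miRNAs the median was -0.18, with 173 higher and 195 lower. Scaled by library size alone, 9 were higher, 12 lower and 15 not called, with a median of -0.18. Over all miRNAs the median was then -0.93, with 70 higher and 271 lower. Those with the largest change were of the miR-29 family, known for targeting collagen mRNAs: miR-29c-3p rose by 5.53 ± 0.20 from 35.5 to 888 CPM, miR-29a-3p by 5.04 ± 0.19 from 160 to 2812 CPM, miR-29c-5p by 4.83 ± 0.28 and miR-29b-3p by 4.63 ± 0.21. These changes were 4.62, 4.12, 3.93 and 3.76 by library size alone. In heart 19 were higher, 11 lower and 6 not called, with a median of 0.51, where over all miRNAs 176 were higher and 161 lower. Scaled by library size alone, 12 were higher, 13 lower and 11 not called, with a median of -0.057. Over all miRNAs the median in heart was 0.07, and by library size alone it was -0.45, with 80 higher and 251 lower. At week 21, 2 of these arms were higher in muscle than in heart, 21 lower and 13 not called, and of the 10 arms of the first list 3 were higher, 4 lower and 3 not called. The median differences were -0.58 and -0.46, against -0.13 over all miRNAs, of which 137 were higher and 191 lower. On library size alone, 2 were higher and 24 lower of the 36, and 3 higher and 4 lower of the 10, with medians of -1.05 and -0.92 against -0.59 over all miRNAs. Of all miRNAs 104 were then higher and 244 lower.

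The miRNAs whose levels were most like those of the members over the 44 organ and age groups were ranked by the Pearson correlation of the mean log2(CPM + 1), as a description. For miR-133a-3p they were miR-1b (0.996), miR-208b-3p (0.906) and miR-499-3p (0.708). miR-1b and miR-208b-3p also led for miR-1-3p (0.961 and 0.926), miR-133b-3p (0.982 and 0.882) and miR-133a-5p (0.973 and 0.937). For miR-206-3p they were the candidate miRNAs rno_miR_chr3_28394 (0.872), rno_miR_chr1_3858 (0.870) and rno_miR_chr10_8434 (0.861), whose muscle means at week 104 were 8.55, 12.5 and 6.75 CPM. The study had kept these candidates for being higher in muscle than in the other organs. By Spearman correlation the most like miR-206-3p were miR-1b (0.621), miR-208b-3p (0.605) and rno_miR_chr3_28394 (0.573). Among the members, miR-133a-3p and miR-133b-3p correlated at 0.986, and miR-206-3p correlated at 0.755 with its cluster partner miR-133b-3p and at 0.678 with miR-133a-3p.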

How the data were processed

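The authors trimmed the reads with fastp 0.23.2, aligned them with Bowtie 1.3.1, allowing fewer than 2 mismatches, to the miRNAs of miRBase 22.1 and the build rn7, and deposited whole-number counts per miRNA, not normalized, for 616 miRNAs in 320 libraries. Of these miRNAs, 12 are the authors' own candidates. 318 libraries were analysed, leaving out the 2 that the study removed, and every column of the table was assigned to its sample by name. No spike-in was used, so differences are relative to the other miRNAs.

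Levels are CPM, counts per 1000000 of a library's column total. Fold changes, SE and p-values came from edgeR 4.0.16 (R 4.3.3), by the quasi-likelihood F test with TMM scaling on all 616 miRNAs. The Benjamini-Hochberg adjustment ran within each comparison, and an adjusted p under 0.05 was called. Comparisons between organs were fitted per age over all organs, ages and sexes per organ over its 8 groups, and the interaction over muscle and heart together. A group with 3 counts or fewer in every library was at the floor, which is 3 counts per library. Permutation tests used SciPy 1.17.1, NumPy 2.4.6 and pandas 2.3.3 (Python 3.11.15), and ratio tests were added after the data were seen. The alternatives were library size alone, DESeq2 1.42.0, library sizes without the members, a filter that kept the 460 miRNAs whose mean count was 10 or more, all 320 libraries, sequencing lane (8 lanes) or sex as a covariate, a replicate block, each replicate number left out, fold thresholds of 2 and 8, and omission of the 2 libraries of exchanged names. The fitting code was tested on simulated data.

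The members and the lists were chosen with earlier results of these data known. Beside the members, those miRNAs are named that passed an enrichment criterion with them, the 3 most like each member with at least 100 CPM in muscle or heart, and up to 4 per list with the largest change in muscle between weeks 2 and 104. miR-122-5p, miR-208a-3p and the single libraries of lung were looked at after the values were seen. By the study's methods each rat gave 10 organs, so the organs of a sex and age come from the same rats. The main comparisons between organs treated their libraries as coming from separate animals. The labels do not say that replicate numbers mark the same rat in different organs. The study's methods name 4 rats per sex and age, so p-values rest on the spread between animals. Intervals from counts cover counting error only and library totals of 315550 to 10571766 counts limit the precision of low levels.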

Additional observations from a re-analysis of the deposited data

Results flagged for a closer look

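In groups of 4 to 8 libraries, 97 groups of a member were tested for a library far from the others by Dixon's criterion and 15 had one; chance gives about 1 in 20. In muscle it was the 1718 CPM of miR-206-3p in a female at week 104 (next library 801 CPM). In heart miR-133b-3p stood low in a female at week 6 with 581 CPM (next 879 CPM) and in a male at week 21 with 883 CPM (next 1194 CPM).

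Most of the others were in lung. At week 2 a female had 3615 CPM of miR-133a-3p (next 2316 CPM) and another 1.14 CPM of miR-1-5p. At week 6 a female had 6047 CPM of miR-133a-3p (next 3235 CPM), 26.6 CPM of miR-133a-5p and 162 CPM of miR-133b-3p, and its miR-122-5p was at 324 CPM. At week 21 the male described in the report had 16301 CPM of miR-133a-3p (next 5885 CPM), 52.7 CPM of miR-133a-5p, 402 CPM of miR-133b-3p, 223.2 CPM of miR-1-3p and 129 CPM of miR-206-3p. In uterus a library of week 6 had 5.40 CPM of miR-1-3p (next 1.48 CPM) and a library of week 21 had 0.781 CPM of miR-206-3p.

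The change with age differed between muscle and heart by the interaction test. From week 2 to week 104 the difference of the log2 changes was 1.32 for miR-133a-3p, 1.65 for miR-1-3p and 2.10 for miR-206-3p, and from week 2 to week 6 it was 0.66 for miR-133a-3p and 2.88 for miR-206-3p, each more positive in muscle. Both values of miR-206-3p were not called without the replicates numbered 2, and since all heart libraries of week 6 had 3 counts or fewer, the 2.88 does not measure the size of the difference.

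The 2 libraries that the study removed held the members at levels above all other libraries of their group. In the male brain library of week 6 there were 7852 CPM of miR-133a-3p (others 413 CPM at most), 23.7 CPM of miR-133a-5p (1.58 CPM), 215 CPM of miR-133b-3p (30.2 CPM), 103 CPM of miR-1-3p (8.93 CPM) and 19.5 CPM of miR-206-3p (7.5 CPM). In the female spleen library of week 104 there were 11935 CPM of miR-133a-3p (132.9 CPM), 37.0 CPM of miR-133a-5p (0.801 CPM), 315 CPM of miR-133b-3p (5.31 CPM), 148 CPM of miR-1-3p (1.35 CPM), 1.74 CPM of miR-1-5p (0 CPM) and 24.3 CPM of miR-206-3p (0.801 CPM).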

How the results depend on the processing

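Most counts of called or enriched miRNAs, and most of the members' log2 differences, kept their direction and their side of the threshold; the causes of the changes below were not tested. Without a spike-in, the scaling of libraries limits what the changes with age can show, and for miR-133b-5p and miR-1-5p outside muscle the depth does.

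Of the log2 differences called on either scaling, 10 changed sign by library size alone. Differences called on neither scaling are left out of this count. In muscle they were miR-133a-3p (-0.076) and miR-133b-3p (-0.039) from week 6 to week 21, and miR-133a-5p (-0.21), miR-1-5p (-0.69) and miR-206-3p (-0.40) from week 2 to week 104. In heart they were miR-133a-3p (-0.14) and miR-133b-3p (-0.23) from week 2 to week 6, and miR-133a-3p (-0.27) and miR-133a-5p (-0.55) from week 2 to week 104. In uterus it was miR-133a-3p (-0.17). With all 320 libraries miR-1-3p in spleen turned to 2.31.

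Enrichment in muscle was passed by 5 miRNAs, by 2 among those with a mean count of at least 10, and by 10 at a 2-fold threshold, of which 4 in place of 2 were members. Enrichment in heart was passed by 6 in place of 3 at 2-fold. No count moved at 8-fold or with sex as a covariate.

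The counts of members called changed as follows. With a mean count of at least 10 they were 3 in place of 5 for muscle over heart at week 2 and for muscle from week 2 to week 6, and 1 in place of 4 in brain. By DESeq2 they were 1 in place of 0 in muscle from week 21 to week 104 and between the sexes in heart, and 2 in place of 1 in lung. By library size alone they were 1 in place of 3 in heart from week 6 to week 21, 0 in place of 1 from week 21 to week 104, 0 in place of 4 in brain, 1 in place of 0 in kidney, 3 in place of 1 in lung and in testis, 1 in place of 2 in uterus, and 5 in place of 2 for the interaction of weeks 2 and 6. With lane as a covariate they were 2 in brain, 1 in kidney, 0 in place of 3 in liver and 3 in lung. With all 320 libraries they were 2 in brain and 5 in place of 0 in spleen, and without the libraries of exchanged names 2 in brain. With library sizes taken without the members the interaction called 6 in place of 3 to week 104 and 5 in place of 2 to week 6.

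For all miRNAs, heart from week 21 to week 104 had 19 calls in place of 35 with lane. Sex had 9 by DESeq2 and 1 with lane in place of 5 in muscle, and 13 by DESeq2 in place of 4 in heart.

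With each replicate number left out in turn, the members called ran from 0 to 1 in muscle from week 21 to week 104, in heart from 1 to 3 (week 2 to 6), 1 to 4 (week 6 to 21), 0 to 1 (week 21 to 104) and 1 to 4 (week 2 to 104). They ran from 1 to 3 in brain, 0 to 1 in kidney and spleen, 0 to 4 in liver, and 1 to 5 for the interaction of weeks 2 and 6. All calls ran from 97 to 138 in heart from week 6 to week 21 (152 with all), 8 to 18 from week 21 to week 104 (35 with all), and by sex 1 to 10 in muscle and 1 to 5 in heart.

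With a replicate block, 5 miRNAs were enriched in muscle, 2 of them members, 6 members were called in muscle from week 2 to week 104, and no called member lost its call; the block added miR-133a-5p (0.49) to the interaction of weeks 2 and 104, which then held 4 members. Libraries of the same number in different organs correlated at 0.0103 on average (1422 pairs), against -0.0033 for other pairs (4266 pairs), so the numbers were not treated as pairs. Of the miRNAs most like a member, 9 comparisons under Spearman or other pseudocounts kept fewer than all 3.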

Other observations

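At week 2 the muscle libraries of the sexes did not overlap for miR-133a-3p, miR-206-3p, miR-133b-5p and miR-1-5p. These values were noticed after the fact and not tested at that age alone. miR-133a-3p ran from 71706 to 98775 CPM in the 4 females and from 53337 to 67614 CPM in the 4 males. miR-206-3p ran from 587 to 936 CPM in females and from 977 to 1294 CPM in males, and miR-133b-5p from 4.57 to 7.74 CPM and from 14.4 to 16.5 CPM. miR-1-5p ran from 24.6 to 30.6 CPM in females and from 17.3 to 23.5 CPM in males. For miR-133a-3p and miR-1-5p the females were higher, and for miR-206-3p and its neighbour miR-133b-5p the males were. At week 6 miR-206-3p stood the other way round, at 803 to 933 CPM in females and 567 to 781 CPM in males, and at weeks 21 and 104 the sexes overlapped for both miR-133a-3p and miR-206-3p.

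miR-208b-3p, which like miR-1b was enriched in both striated organs outside the name rule, changed with age in heart. Its mean there was 10043 CPM at week 2, 1344 CPM at week 6, 1265 CPM at week 21 and 3988 CPM at week 104, and in muscle 344, 834, 552 and 522 CPM at the same ages. The 3 candidate miRNAs enriched in muscle had means there of 5.03, 7.62, 9.25 and 12.5 CPM (rno_miR_chr1_3858), 1.87, 6.85, 6.08 and 8.55 CPM (rno_miR_chr3_28394) and 2.64, 4.65, 6.28 and 6.75 CPM (rno_miR_chr10_8434), and 0.221 CPM at most in heart.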
